A study of Rattus norvegicus with 5 samples.

Results

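The genes examined here are 10 markers of the endothelium that lines the liver sinusoids, measured in RNA labelled as coming from rat hepatic stellate cells. They are Emcn, Pecam1, Cdh5, Kdr, Tek, Stab2, Lyve1, Vwf, Flt1 and Eng, and they were chosen by name. The platform annotation pairs 6 of the 10 with a probe, 1 probe each, among 13337 genes named on the array. No probe carries the symbol of Pecam1, Kdr, Stab2 or Eng in this annotation, and these 4 were not analysed here. Of the 6 measured genes, 5 were detected on at least 1 array and entered the fit with 9737 of 22523 probes, while Cdh5 was detected on no array. Detected means a deposited detection p-value, which sets a probe's signal against negative control beads, under 0.01.

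The 5 samples are RNA of primary hepatic stellate cells isolated from Wistar rats, all males aged 10 weeks, hybridised to 5 Illumina bead arrays on 1 chip. In 2 samples the cells, at day 3, had received 1,25(OH)2D3 (calcitriol, the hormonal form of vitamin D) at 100 nM, with a treatment time of 24 h in the study's description. Another 2 samples are day 3 cells given vehicle, and 1 sample is labelled freshly isolated and untreated. The labels do not say whether replicates came from separate animals or cultures, so the p-values rest on a spread between arrays that may be only technical.

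Sinusoidal endothelial cells form a thin, perforated wall between the blood and the stellate cells and hepatocytes behind it. They clear hyaluronan and other waste molecules from the blood through scavenger receptors, and they respond to vascular endothelial growth factors and angiopoietins made by their neighbours. Preparations of stellate cells are enriched by density and can carry endothelial cells and macrophages along. Several of the 10 genes are not exclusive to endothelium, since macrophages can carry Lyve1 and Pecam1, and stellate cells and macrophages can carry Eng.

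The array labelled freshly isolated stood closer to the calcitriol arrays than to the vehicle arrays. Over the 9737 probes kept, its root mean square log2 distance was 0.309 and 0.324 from the calcitriol arrays and 0.439 and 0.436 from the vehicle arrays. The calcitriol arrays lay 0.285 from each other, and the vehicle arrays 0.314. Cyp24a1, the enzyme that breaks down calcitriol, which the vitamin D receptor induces directly, had signals of 510 and 591 intensity units on the calcitriol arrays, 105 and 84.4 on the vehicle arrays and 382 on the array labelled freshly isolated. Its signal was above the detection limit on an array whose label names no calcitriol. Whether that label is right was not tested, so comparisons with this array need not be of fresh with cultured cells. Every comparison with the array labelled freshly isolated rests on this 1 library. Of the stellate cell markers, Des, Vim, Col1a1 and Col1a2 were detected on all 5 arrays and Gfap on none, and Cd163, a macrophage marker, was also detected on all 5. Positions on the chip differ between the groups, so position and group cannot be told apart.

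Emcn, the gene of endomucin, a sialomucin on the surface of capillary and venous endothelium, differed most among the 6. Its signal was 240.5 and 239.8 intensity units on the calcitriol arrays and 236 and 204 on the vehicle arrays, against 138 on the array labelled freshly isolated. All 4 cultured arrays detected it, with detection p-values of at most 0.00242. The array labelled freshly isolated did not, with a detection p of 0.0279. The bead standard errors, which measure noise within an array only, were 9.93 to 12.0 units on the cultured arrays and 5.68 on the array labelled freshly isolated. The groups did not overlap before or after normalization.

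After background correction and quantile normalization, Emcn had a mean log2 level of 7.29 over the 4 cultured arrays and 5.74 on the array labelled freshly isolated. The difference was 1.55 ± 0.15 (SE, 4 arrays against 1), with a 95% interval of 1.17 to 1.94. Because the gene was not detected on that array, its fold is a lower bound. The bound sets the cultured mean against the lowest level at which that array detected any probe. On this background-corrected scale Emcn was at least 2.20-fold higher in cultured cells, at least 2.26-fold with calcitriol and at least 2.14-fold with vehicle. The size depends on the background correction: the log2 difference for the 4 cultured arrays was 0.85 without correction and with the series' value table, 0.92 with normexp and 1.13 with a larger offset, and the deposited signals had a ratio of 1.67. The bounds therefore hold for this scale only. Limma's moderated test with Benjamini-Hochberg adjustment over all kept probes gave an adjusted p of 0.0751 for the 4 cultured arrays together, 0.0243 for vehicle and 0.213 for calcitriol. Emcn therefore passed the threshold of 0.05 with vehicle and missed it in the other 2 comparisons, all 3 of which share the array labelled freshly isolated. The call with vehicle was lost when any 1 of the 4 cultured arrays was left out, which leaves 1 residual degree of freedom. The log2 difference with vehicle then stayed between 1.47 and 1.58. In bulk RNA, fewer cells of a type and less RNA per cell cannot be told apart, here and in the comparisons that follow.

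**Figure D1:**
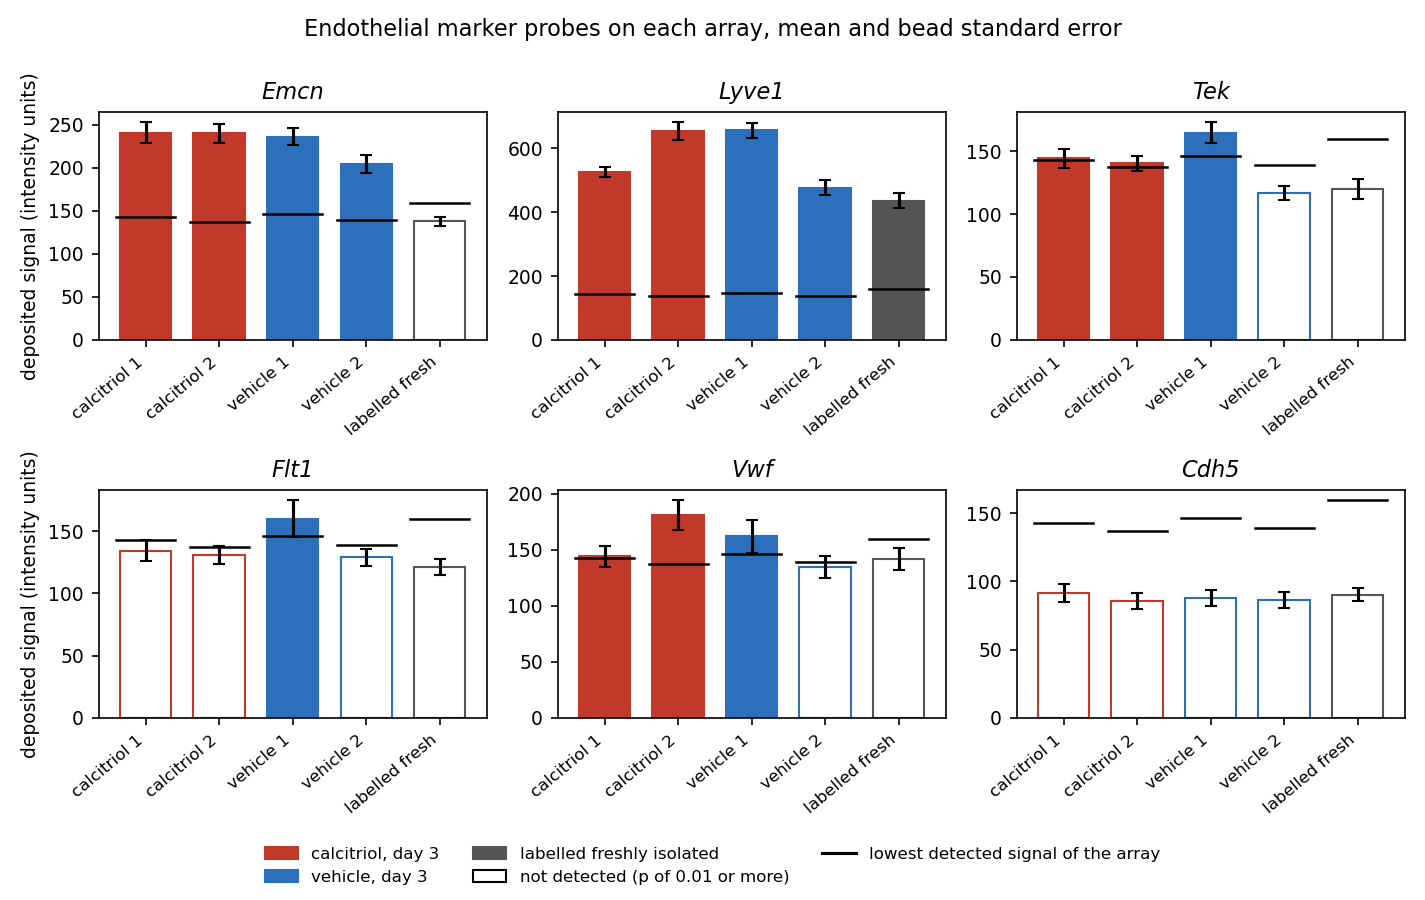
Deposited signal (vertical axis, intensity units, from 0) of the 6 measured endothelial genes on each array, with bars for the mean over beads and error bars for the bead standard error. Open bars were not detected and black ticks mark the lowest detected signal of that array; Lyve1 lies above the ticks on all 5 arrays, Emcn on the 4 cultured ones, and Cdh5 on none.

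Lyve1, a hyaluronan receptor of lymphatic and sinusoidal endothelium, was the only one of the 6 detected on all 5 arrays. Its signal was 527 and 653 units on the calcitriol arrays and 657 and 477 on the vehicle arrays, against 436 on the array labelled freshly isolated. The lowest cultured value, on vehicle array 2, exceeded that of the array labelled freshly isolated by little before normalization. Vehicle array 2 was the dimmest array, with a mean signal of 608 units over all probes against 855 on the array labelled freshly isolated, and after normalization each cultured array was higher by between 0.56 and 0.80 on the log2 scale. The fitted difference was 0.70 ± 0.16 (SE, 4 arrays against 1), or 1.63-fold, with a 95% interval of 0.32 to 1.09. Lyve1 did not pass in limma, with an adjusted p of 0.228 for the 4 cultured arrays together, 0.132 for vehicle (log2 difference 0.75 ± 0.17) and 0.487 for calcitriol (0.65 ± 0.17). Stab2, the other hyaluronan scavenger receptor among the 10 genes, has no probe named here.

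The bases before the starts of Emcn and Lyve1 are shown because Emcn is the member that passed a test and Lyve1 the one detected on every array. They come from the RefSeq promoter table of build GRCr8, 5′ to 3′ on the gene's strand, and end before any annotated start of the gene. Capitals mark CAGGAA or, on the other strand, TTCCTG, a core that ETS factors can bind. ETS factors are transcription factors that regulate many endothelial genes.
Emcn, chr2:228564289-228564444, plus strand: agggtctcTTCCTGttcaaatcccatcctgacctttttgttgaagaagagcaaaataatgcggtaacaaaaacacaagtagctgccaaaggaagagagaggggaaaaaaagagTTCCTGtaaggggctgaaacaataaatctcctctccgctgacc
Lyve1, chr1:174410978-174411227, minus strand: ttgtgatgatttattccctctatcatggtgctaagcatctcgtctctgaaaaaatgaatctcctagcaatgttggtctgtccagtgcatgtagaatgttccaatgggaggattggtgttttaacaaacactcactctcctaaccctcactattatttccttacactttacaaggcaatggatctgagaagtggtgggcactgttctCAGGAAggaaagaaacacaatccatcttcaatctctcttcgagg

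Emcn holds 2 such matches and Lyve1 holds 1. In the 250 bases before the start, on either strand, 24.7% of the 33469 promoters in the table hold CAGGAA, so a match is common. The table has promoters for 6 of the 10 genes, namely Emcn, Kdr, Stab2, Lyve1, Flt1 and Eng. Pecam1, Cdh5, Tek and Vwf have none there and were not searched. CAGGAA was also found before Stab2 and Eng. In the same window CCGGAA, another ETS core present in 12.6% of all promoters, was found before Kdr. The SOX core ACAAAG, present in 16.3%, was found before Eng. The letters AGATAA, which zinc finger factors of the GATA family bind, are present in 10.3% of all promoters. They were found before none of the 6 genes with a promoter in the table. The AP-1 site TGANTCA, present in 6.34%, was also found before none. A match describes the letters only.

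Tek and Flt1 are receptor tyrosine kinases of the vessel wall. Tek (TIE2) binds angiopoietins, and Flt1 binds vascular endothelial growth factor and limits how much of it reaches Kdr, the main signalling receptor. Tek had 144 and 140 units on the calcitriol arrays and 165 and 117 on the vehicle arrays, against 120 on the array labelled freshly isolated. It was detected on both calcitriol arrays and vehicle array 1, with signals only just above the detection limit, and not on vehicle array 2 or on the array labelled freshly isolated. Before normalization vehicle array 2 lay below the array labelled freshly isolated, so the groups overlapped, and after it all 4 cultured arrays were higher, by between 0.21 and 0.96 on the log2 scale. The fitted difference was 0.63 ± 0.29 (SE, 4 arrays against 1, adjusted p = 0.596 in limma).

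Flt1 had 134 and 131 units on the calcitriol arrays and 160 and 129 on the vehicle arrays, against 121 on the array labelled freshly isolated. Vehicle array 1 alone detected it. The fitted log2 difference between cultured arrays and the array labelled freshly isolated was 0.57 ± 0.18 (SE, 4 arrays against 1, adjusted p = 0.372 in limma), and the groups did not overlap on either scale. For both receptors the bound on the fold came out under 1, so no fold is given. The signals of both receptors stayed close to the detection limit on every array.

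Vwf encodes von Willebrand factor, a clotting glycoprotein that large vessel endothelium stores and that healthy sinusoidal endothelium holds little of. Its signals were 144 and 181 units on the calcitriol arrays and 162 and 134 on the vehicle arrays, against 142 on the array labelled freshly isolated. Both calcitriol arrays and vehicle array 1 detected it. The raw values overlapped, and after normalization the cultured arrays were higher by between 0.27 and 0.79 on the log2 scale, with a fitted difference of 0.45 ± 0.23 (SE, 4 arrays against 1, adjusted p = 0.626 in limma). Vwf was not detected on the array labelled freshly isolated, and no fold is given, since 2 of the 4 cultured arrays lay below the lowest level detected there. Cdh5, the cadherin of endothelial junctions, gave 91.5 and 85.5 units on the calcitriol arrays and 87.7 and 86.4 on the vehicle arrays, against 90.4 on the array labelled freshly isolated. All 5 values were near the background, with detection p-values from 0.415 to 0.634, and no fold is given.

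**Figure D2:**
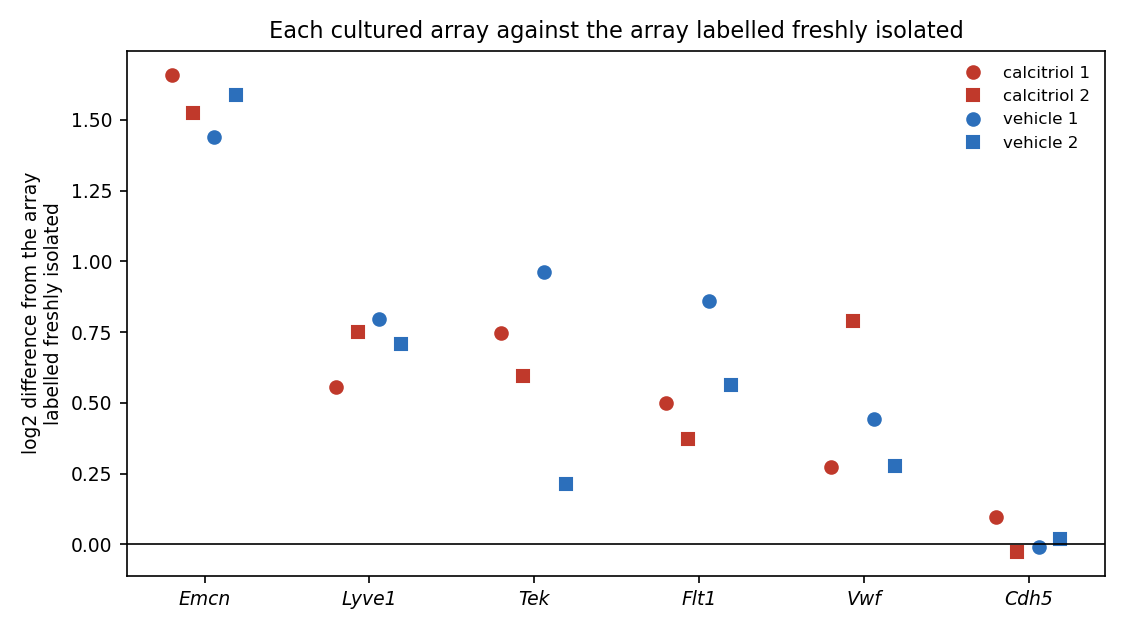
Normalized log2 difference (vertical axis) of each of the 4 cultured arrays from the array labelled freshly isolated, by gene, with circles for replicate 1 and squares for replicate 2. Emcn lies between 1.44 and 1.66, Lyve1 between 0.56 and 0.80, and Cdh5 between -0.03 and 0.10.

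Among the 6 measured genes, the 4 cultured arrays all lay above the array labelled freshly isolated for 5 genes after normalization, with Cdh5 as the exception. For comparison, 19.1% of all 22523 probes had all 4 cultured arrays above it and 19.3% had all 4 below it. The median difference of the 6 genes was 0.60 on the log2 scale, against 0.01 over all probes. It was 0.29 without background correction and with the series' value table, 0.33 with normexp and 0.37 with a larger offset. On the array labelled freshly isolated Lyve1 alone of the 6 was detected, and Emcn, Tek, Vwf and Flt1 entered the fit through the cultured arrays alone. The counts of members that passed the detection filter therefore say nothing on direction. In limma 0 of the 5 members in the fit passed for the 4 cultured arrays together (Emcn passed in 7 of 15 alternative settings), with 3 at an unadjusted p under 0.05 (Emcn, Lyve1 and Flt1). The background there was 0.0103% of kept probes called in either direction, and 9.54% at an unadjusted p under 0.05. With vehicle 1 of 5 was higher (0.483% of kept probes), and with calcitriol 0 of 5 (0%, with 6.67% at an unadjusted p under 0.05).

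**Figure D3:**
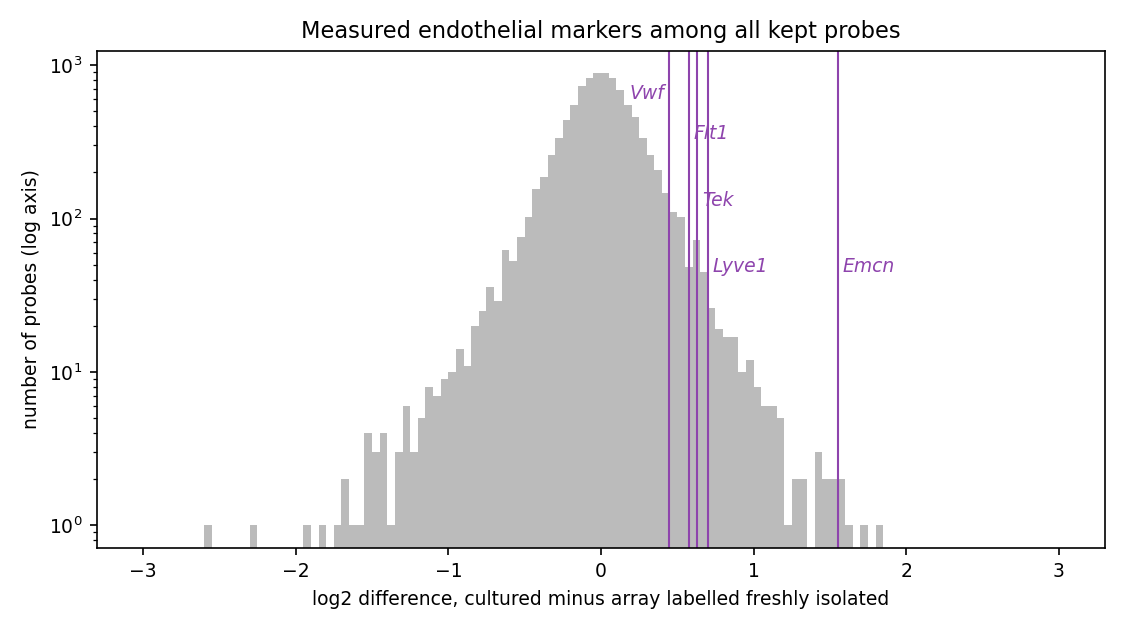
Histogram of the log2 difference (horizontal axis) between the 4 cultured arrays and the array labelled freshly isolated over the 9737 kept probes, with the number of probes on a log axis and lines for the 5 members in the fit. Vwf, Flt1, Tek and Lyve1 lie between 0.45 and 0.70 on the upper shoulder, and Emcn lies at 1.55 in the upper tail.

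The treatment comparison asked whether calcitriol altered these genes in day 3 cells, with 2 arrays per group. In limma 0 of the 5 members in the fit passed, and 0 had an unadjusted p under 0.05, where 1.83% of kept probes were called in either direction and 15.8% had such a p. Emcn differed by a log2 value of 0.080 ± 0.14 (SE), with a 95% interval of -0.26 to 0.42, between calcitriol and vehicle. Lyve1 differed by -0.098 ± 0.14, with an interval of -0.45 to 0.25. After normalization the calcitriol and vehicle arrays overlapped for both genes, while on the deposited signals both calcitriol arrays lay above both vehicle arrays for Emcn. Differences smaller than these intervals could not be told from none with 2 arrays per group.

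The dimmer members had wider intervals. They were -0.56 to 0.73 for Tek around 0.084, -0.33 to 0.68 for Vwf around 0.17, and -0.66 to 0.12 for Flt1 around -0.27. After normalization Flt1 was the one of these 5 genes whose calcitriol arrays both lay below both vehicle arrays, a pattern that 20.5% of all probes shared, and on the deposited signals its groups overlapped. Its adjusted p was 0.46. Without the array labelled freshly isolated, in a fit over the 4 cultured arrays, 0 members passed as well, of 182 probes called.

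**Figure D4:**
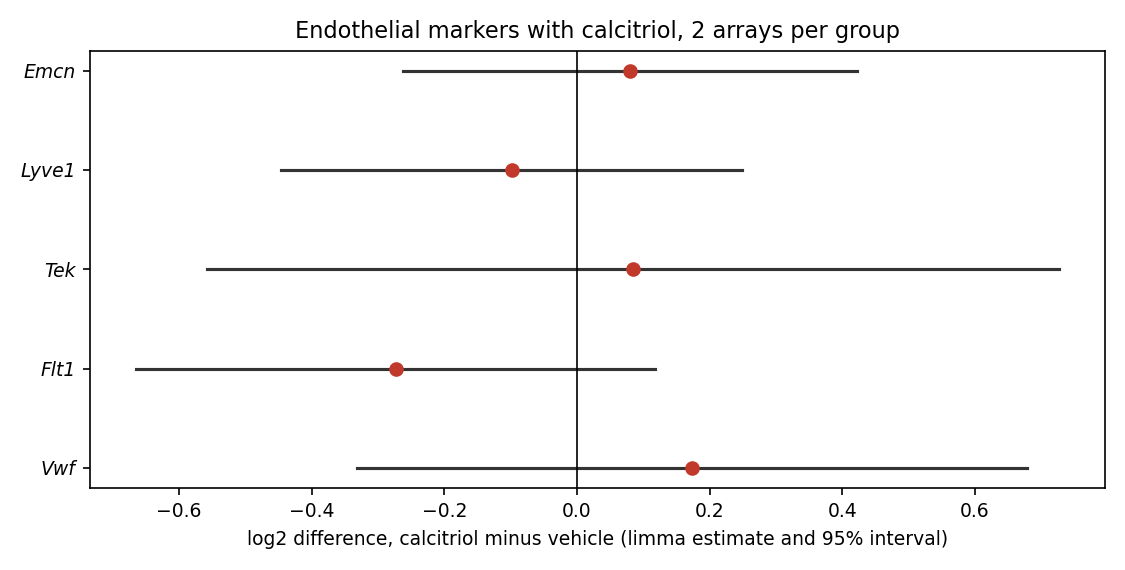
Limma's estimate (points) and 95% interval (lines) of the log2 difference between calcitriol and vehicle for the 5 members in the fit, 2 arrays per group. All 5 intervals include 0, and the narrowest are those of Emcn and Lyve1.

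Other genes of sinusoidal endothelium were read from a list of 33 symbols, of which 28 had a named probe and 22 were detected on at least 1 array. Of the 28, 25 had a higher value in cultured cells than on the array labelled freshly isolated, with a median log2 difference of 0.25, whereas 52.3% of all probes had a higher value. In limma 0 of the 22 passed in any of the comparisons, where at most 1.83% of kept probes were called, so that 0 of 22 is near the background. Fcgr2b, an Fc receptor through which these cells clear immune complexes and which macrophages also carry, had a log2 difference of 0.63 ± 0.15 (SE, 4 arrays against 1, adjusted p = 0.255). Its signals were 3434 and 4359 units on the calcitriol arrays and 5398 and 3871 on the vehicle arrays, against 3361 on the array labelled freshly isolated. Tfec, a transcription factor that macrophages also use, had a difference of 0.88 ± 0.25 (adjusted p = 0.332), and Meis2, a homeobox factor that was not detected on the array labelled freshly isolated, was at least 1.54-fold higher on the background-corrected scale (adjusted p = 0.318). The value of Tfec for the 4 cultured arrays came mainly from vehicle. Against the array labelled freshly isolated, Tfec had a log2 difference of 1.54 ± 0.28 with vehicle and of 0.22 ± 0.28 with calcitriol. Its signals were 216 and 195 units on the calcitriol arrays and 479 and 285 on the vehicle arrays, against 202. Between calcitriol and vehicle, Tfec had a difference of -1.32 ± 0.22 (adjusted p = 0.0621) and the adhesion molecule Icam1 of 0.74 ± 0.15 (adjusted p = 0.091).

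General endothelial genes were read from a list of 62 symbols, 48 with a named probe and 32 detected. In cultured cells 31 of the 48 had a higher value, with a median log2 difference of 0.11. Apln, the gene of the peptide apelin, which tip cells of growing vessels release, passed with vehicle, 1 of the 32 detected genes, beside 0.483% of kept probes called higher. Its signals were 279.9 and 319.5 units on the calcitriol arrays and 274 and 214 on the vehicle arrays, against 167 on the array labelled freshly isolated, and all 5 arrays detected it. Apln had a log2 difference of 1.18 ± 0.16 with vehicle (adjusted p = 0.0362) and of 1.49 ± 0.16 with calcitriol (adjusted p = 0.213). On the array labelled freshly isolated its signal was only 1.05 times the lowest detected signal. The deposited signals had a ratio of 1.46 with vehicle, and other processing settings were not examined for Apln. For Apln, as for Emcn, all 4 cultured arrays lay above the array labelled freshly isolated. Adgrl4, an adhesion receptor of endothelium, had a difference of 0.95 ± 0.18 (SE, 4 arrays against 1, adjusted p = 0.176), and Egfl7, a secreted factor of endothelium, of 0.79 ± 0.15 (adjusted p = 0.176). Between calcitriol and vehicle 0 of the 32 passed. Plvap, which forms the diaphragms of fenestrated vessels, had a difference of 0.66 ± 0.13 (adjusted p = 0.0872), and Lyl1, a blood and endothelial transcription factor, of -0.59 ± 0.21 (adjusted p = 0.267).

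**Figure D5:**
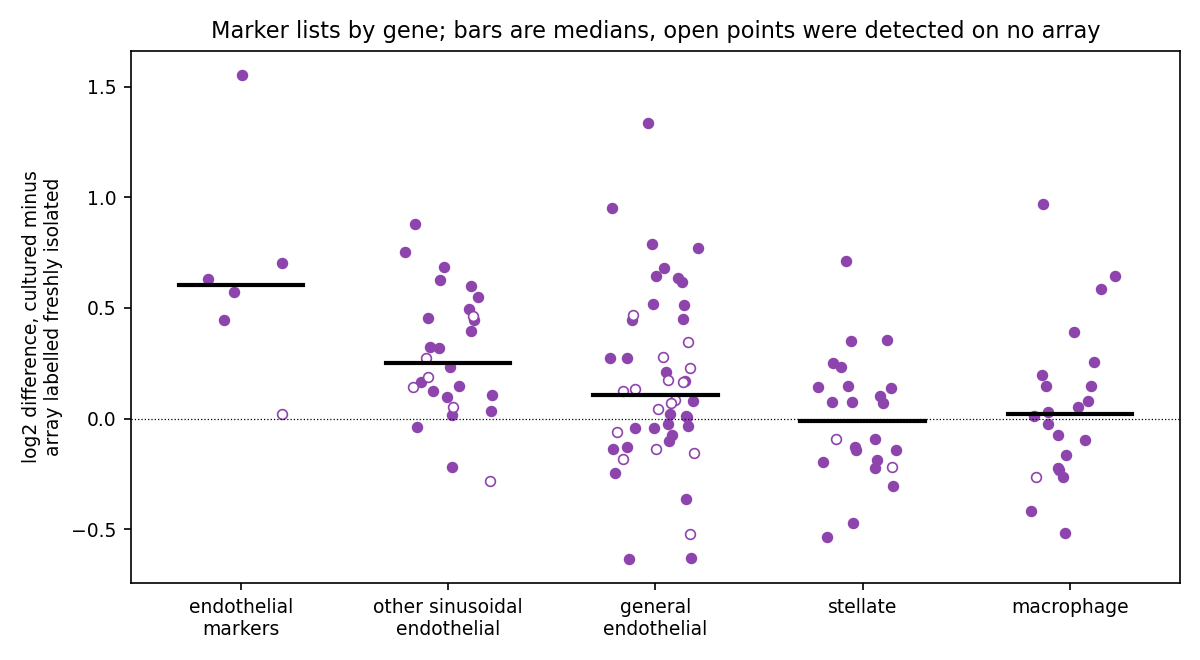
Log2 difference (vertical axis) between the 4 cultured arrays and the array labelled freshly isolated, 1 point per gene, for the 6 measured members, 28 other sinusoidal endothelial, 48 general endothelial, 24 stellate and 22 macrophage genes, with bars at the medians. The medians are 0.60, 0.25, 0.11, -0.01 and 0.02.

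The ligand side of the receptors was also measured. Of 12 measured genes of VEGF signalling, 9 were detected, and 0 of the 9 passed in limma in any comparison, which is near the background of at most 1.83% of kept probes. The median log2 difference of the 12 between cultured cells and the array labelled freshly isolated was 0.029, with 6 above 0. Vegfa, the ligand of Flt1 and Kdr, had a log2 difference of -0.64 ± 0.15 between cultured cells and the array labelled freshly isolated (SE, 4 arrays against 1, adjusted p = 0.234). Vegfb, a ligand of Flt1 but not of Kdr, was detected only on the array labelled freshly isolated and was at least 1.17-fold lower in cultured cells on the background-corrected scale (adjusted p = 0.438). Pgf, placental growth factor, another ligand of Flt1, had a log2 difference of -0.59 ± 0.23 (adjusted p = 0.518). These 3 genes have the smallest p-values of the list in this comparison. The summed signal of all 12 ran the other way, from 4635 to 5760 units on the cultured arrays, against 4483 on the array labelled freshly isolated. The 12 are not all ligands. They include Hif1a, with deposited signals of 1863 and 1858 units on the calcitriol arrays and 1526 and 897 on the vehicle arrays, against 1444. The sum therefore does not give the direction of the ligands. Of 5 detected angiopoietin family genes 0 passed, with Angptl4 at 0.47 ± 0.16 (adjusted p = 0.409) and Tie1, the partner receptor of Tek, at 0.21 ± 0.18 (adjusted p = 0.803).

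Of the genes downstream of endoglin and its ligand BMP9, 14 were detected. Id2, a transcription inhibitor and target of BMP signalling, rose with vehicle against the array labelled freshly isolated, by a log2 value of 2.18 ± 0.15 (adjusted p = 0.0112), and fell with calcitriol against vehicle, by 1.57 ± 0.13 (adjusted p = 0.00808). No other gene of this list passed in either comparison, in which 0.483% of kept probes were called higher with vehicle and 0.657% lower with calcitriol. The inhibitory Smad7 had a difference of -0.73 ± 0.20 between cultured cells and the array labelled freshly isolated (adjusted p = 0.325), and Smad6, another inhibitory Smad, of 0.36 ± 0.14 (adjusted p = 0.513). Id2 thus passed in the treatment comparison, in which Emcn did not, and the difference between the genes was not tested. Between calcitriol and the array labelled freshly isolated, the log2 difference of Id2 was 0.62 ± 0.15. Vehicle against that array and calcitriol against vehicle use the same 2 vehicle arrays, here and below, so these are not separate results.

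Of 7 detected genes that make, cut or bind hyaluronan, the ligand of Lyve1 and Stab2, Cd44 passed in the treatment comparison. Cd44 is a hyaluronan receptor of leukocytes and mesenchymal cells. It had 1799 and 1763 units on the calcitriol arrays and 3305 and 2430 on the vehicle arrays, and fell by a log2 value of 0.93 ± 0.15 (SE, 2 arrays per group, adjusted p = 0.0481). For lower values with calcitriol the background was 0.657% of kept probes. Lyve1 overlapped between these groups. The synthase Has2 had a difference of -0.63 ± 0.18 between cultured cells and the array labelled freshly isolated (adjusted p = 0.336). In the Notch list, which serves vessel patterning, Mfng, a sugar transferase that modifies Notch receptors, rose with calcitriol against vehicle by 2.00 ± 0.13 (adjusted p = 0.00497), alone of 8 detected genes, beside 1.17% of kept probes called higher. Notch1 had a difference of -0.85 ± 0.14 (adjusted p = 0.0523) in that comparison. Between calcitriol and the array labelled freshly isolated, Mfng differed by 0.17 ± 0.16. Mfng was also the one of the 8 that passed with vehicle against the array labelled freshly isolated, where it was lower, at -1.83 ± 0.16 (adjusted p = 0.016), beside 1.05% of kept probes called lower.

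Markers of other liver cells were set beside these values. Macrophage markers were detected on all 5 arrays for 20 of 22 measured genes, and their summed background-corrected signal ran from 163188 to 169455 units on the cultured arrays, against 175409 on the array labelled freshly isolated. The corresponding sums over 24 stellate genes were 127354 to 137710 and 138864. The 28 sinusoidal genes summed to 43936 to 48016 units on the cultured arrays, against 41150 on the array labelled freshly isolated, and the 6 members to 766 to 861 units, against 443. The array labelled freshly isolated was thus lowest in these endothelial sums. Its macrophage sum was highest, and its stellate sum was highest by little beside the range of the cultured arrays. By gene, the median log2 difference of cultured cells from this array was -0.01 for stellate and 0.02 for macrophage genes. This array was also lowest, but by very little, in the sum over 11 hyaluronan genes (6504 to 7700 units on the cultured arrays, against 6470). The same held over 6 biliary genes (21154 to 25283, against 21141). Wider gaps in this direction were found over 17 endoglin and BMP9 genes (11361 to 20181, against 9862). Over 7 angiopoietin family genes the sums were 2509 to 2672, against 2189. Being lowest is thus not particular to endothelial genes. On this background-corrected scale, on which the size of the members' differences depends, the gap of the 6 members was wider than in these sums. Among macrophage genes Ptprc, the pan-leukocyte phosphatase, passed with vehicle against the array labelled freshly isolated, at 1.59 ± 0.22 (adjusted p = 0.0393). It fell with calcitriol against vehicle, by 1.23 ± 0.18 (adjusted p = 0.038). Ptprc alone of 21 detected macrophage genes passed in either comparison. Of kept probes, 0.483% were called higher with vehicle and 0.657% lower with calcitriol. Its signals were 497 and 543 units on the calcitriol arrays and 1293 and 756 on the vehicle arrays, against 467 on the array labelled freshly isolated. Ptprcap, a lymphocyte protein bound to that phosphatase, was at least 2.10-fold lower with vehicle than on the array labelled freshly isolated (adjusted p = 0.0243) and at least 2.67-fold higher with calcitriol than with vehicle (adjusted p = 0.00725). Ptprcap alone of 9 detected lymphocyte genes passed, beside 1.05% of kept probes called lower with vehicle and 1.17% called higher with calcitriol. Its signals were 249 and 281 units on the calcitriol arrays and 135 and 123 on the vehicle arrays, against 239 on the array labelled freshly isolated. Hepatocyte markers were detected on no array for 19 of 25 genes, Alb among them. In the biliary list 4 of 6 genes, in the mesothelial and portal fibroblast list 5 of 10, and in the lymphocyte list 8 of 17 were detected on no array. The part of macrophage RNA in the values of Lyve1 and the other members was not tested.

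Among 7178 other named probes, the 5 genes with the profile nearest to the median profile of the 5 detected members over the 5 arrays were Odf2l, Cited2, Abhd17b, Erf and Tnfrsf11b. Likeness was measured as the root mean square difference of log2 values centred on each gene's mean, which ran from 0.047 for Odf2l to 0.064 for Tnfrsf11b. Cited2, a transcription co-regulator, had 1568 and 1919 units on the calcitriol arrays and 1720 and 1336 on the vehicle arrays, against 1239 on the array labelled freshly isolated. Erf, an ETS family repressor, had 294 and 380 units on the calcitriol arrays and 377 and 282 on the vehicle arrays, against 272. Tnfrsf11b, the gene of osteoprotegerin, had log2 differences of 0.54 ± 0.14 between cultured cells and the array labelled freshly isolated (adjusted p = 0.296 in limma) and of -0.13 ± 0.13 between calcitriol and vehicle (adjusted p = 0.672). A profile of this shape, low on 1 array and level on the others, was also found in these 5 genes, which no endothelial list here holds. They were picked for this likeness, so how common the shape is was not tested. Odf2l was not detected on vehicle array 2 or on the array labelled freshly isolated.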

How the data were processed

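RNA from 5 samples was measured on bead arrays, and the deposited signals were produced with GenomeStudio 2011.1, per the submitters' processing notes. Per the file headers, each probe's deposited row gives an average bead intensity, the bead count behind it, the bead standard error and a detection p-value, not normalized between arrays. The series' value table holds intensities that look quantile normalized, a step that no label names. Probe names came from the platform annotation, which gives 1 symbol for 13793 probes, several for 0 and none for 8730. No source used here gives the probes' genome build.

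Starting from these deposited intensities, neqc in limma 3.58.1 (R 4.3.3, offset 16, quantile normalization, log2) gave normalized levels. The changes of dim probes depend on this step. For Emcn the log2 difference of the cultured arrays was 1.55 with it and 0.85 without background correction. Probes detected at p under 0.01 on at least 1 array were kept. A model with 1 mean for each of 3 groups was fitted to all 5 arrays (lmFit and eBayes, 2 residual degrees of freedom, prior worth 3.65), so the array without a replicate is assumed to vary like the others. Tests are two-sided with Benjamini-Hochberg adjustment over 9737 probes. The contrast for cultured cells takes the mean of the calcitriol and vehicle means. Where a list gene had several probes, that of highest mean was used. The fit was also run on simulated data with the same spread on all 5 arrays. That run cannot test whether the array without a replicate varies like the others. Precision is limited by how few arrays there are.

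The members, lists and tests were chosen with earlier results of these data known. Genes of a list could be named if among the 3 with the smallest p for cultured cells or the 2 with the smallest p for calcitriol against vehicle, or if they check a label; of the lists of other cell types, those that passed a test are given. Calcitriol and vehicle arrays share the numbers 1 and 2, and the labels do not say what a number marks.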

Additional observations from a re-analysis of the deposited data

How the results depend on the processing

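Alternatives were run for each count of members past the threshold, for the median of the 6 members and for each member in the fit. For the 4 cultured arrays against the array labelled freshly isolated, where 0 members passed, 1 passed (Emcn) without background correction, with normexp at offset 50, with neqc at offset 50, with scaling to the array median, with the series' value table and with detection on at least 2 arrays. With a variance trend 2 passed (Emcn and Lyve1), and at an unadjusted p under 0.05 there were 3. Against the same array, vehicle had 2 (Emcn and Lyve1, in place of Emcn alone) without background correction, with normexp, with the value table and with a variance trend. Calcitriol had 1 in place of 0 without background correction, with median scaling, with the value table and with a variance trend. Over all kept probes the count past the threshold, 1 for the 4 cultured arrays together, ran from 0 to 236 over the settings that adjust p, and 929 had an unadjusted p under 0.05. Leaving out any of the 4 cultured arrays in turn gave 0 in each comparison, so the call of Emcn with vehicle was lost each time, with adjusted p from 0.0554 to 0.123 and 1 residual degree of freedom. The log2 difference of Emcn for the 4 cultured arrays stayed above 0 in all 15 alternatives, between 0.85 and 1.58, with adjusted p from 0.00096 to 0.385. The median of the members, 0.60, was 0.29 without background correction and also with the value table, 0.33 with normexp, 0.37 with neqc at offset 50, and 0.47 to 0.70 with a cultured array left out. Median scaling put the kept probes at -0.11. For calcitriol against vehicle 0 members passed in every alternative run. Signs turned in that comparison, and the cause was not tested. Lyve1 was 0.074 with median scaling, Vwf ran from -0.081 to 0.43 and Tek from -0.30 to 0.45 with an array left out. With the replicate number as a block over the 4 cultured arrays 0 members and 129 probes passed. Same-numbered arrays deviated together with r = -0.106 over 9737 probes, and with the numbers crossed, an alternative chosen after seeing the data, 0 members and 204 probes passed. At a detection p under 0.05, also chosen later, 22 of the pairs of gene and array were detected in place of 16. Most members lie near the detection limit, which limits what these arrays can show of Tek, Flt1, Vwf and Cdh5.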
